A study of Mus musculus with 12 samples.

Results

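Of 12 expression arrays from cultured mouse trigeminal ganglion (TG) neurons, 4 carried a strong signal of prolactin, a hormone made by the pituitary gland. These 4 arrays were chosen by their measured value, a Prl probe above 10 on the log2 scale, and were set against the other 8, whose Prl probe was below 10. The 4 arrays were scramble 3 and miR-324 1, 2 and 4, that is 1 of 3 arrays transfected with scramble miRNAs and 3 of 3 transfected with miR-324. The 8 arrays were scramble 1 and 2, miR-21 1, 2 and 3, and miR-34a 1, 2 and 3. All cells were primary TG neurons grown on laminin and transfected with a miRNA, and the labels name no untransfected group, strain, sex or age. The arm of miR-324 is not named. Nothing in the labels tells whether replicate arrays are separate cultures, so a p-value here measures spread between arrays that in some groups may be only technical. Within miR-324 the Y-linked gene Eif2s3y ran from 2.96 to 7.88, and within miR-34a from 2.27 to 8.53. The arrays of these groups were thus not all repeats of the same cells. In the labels, scramble 3 and miR-324 2 share the suffix 3-11, scramble 1 and 2 and miR-34a 1 and 2 share the suffix 4-10, and the other 6 arrays have none. Values just inside the threshold were 14.26 in miR-324 2, and just outside it 4.83 in scramble 2.

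The anterior pituitary is an endocrine gland at the base of the skull, close to the trigeminal ganglia. Its lactotrophs make prolactin, its somatotrophs growth hormone, its corticotrophs proopiomelanocortin, and its gonadotrophs and thyrotrophs make hormones that pair the shared alpha subunit encoded by Cga with a beta subunit of their own (Lhb, Fshb, Tshb). A trigeminal ganglion itself holds sensory neurons wrapped by satellite glia, with Schwann cells, fibroblasts, vessels and macrophages around them.

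Promoter sequences of genes with a wide gap between the 4 and the 8 arrays are shown first, because the results below turn on hormone genes and on interferon-induced genes. Each is the 250 bases before the gene's start in RefSeq on GRCm38.p6, 5′ to 3′ on the gene's strand. In Prl, capitals mark matches on either strand to TATNCAT, a motif of the kind bound by a pituitary POU-homeodomain factor. The window of Prl, chr13:27057320-27057569 (+), had 2 matches, 1 starting 148 bases before the gene's start on the reverse strand and 1 starting 47 bases before it on the forward strand. The window of Cga, chr4:34893529-34893778 (+), had 0 and is shown without capitals. In Ifit3, chr19:34583279-34583528 (+), and Gbp3, chr3:142559794-142560043 (+), capitals mark matches on either strand to GAAA, any 2 bases and GAAA again, the core of the element through which interferons switch on their target genes. Ifit3 had 2 separate matches, and the 2 matches of Gbp3 overlapped. Gbp3 has 2 such windows, and only the 1 with matches is shown.
Prl: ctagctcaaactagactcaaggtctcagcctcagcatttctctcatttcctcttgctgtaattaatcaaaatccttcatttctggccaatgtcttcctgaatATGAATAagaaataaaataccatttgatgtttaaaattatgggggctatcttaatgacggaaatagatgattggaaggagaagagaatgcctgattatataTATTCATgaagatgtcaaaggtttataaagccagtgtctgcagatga
Cga: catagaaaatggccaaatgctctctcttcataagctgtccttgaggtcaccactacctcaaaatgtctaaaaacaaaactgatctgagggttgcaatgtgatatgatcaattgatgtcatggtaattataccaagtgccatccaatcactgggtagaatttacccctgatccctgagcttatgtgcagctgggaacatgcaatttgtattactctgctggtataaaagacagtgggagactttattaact
Ifit3: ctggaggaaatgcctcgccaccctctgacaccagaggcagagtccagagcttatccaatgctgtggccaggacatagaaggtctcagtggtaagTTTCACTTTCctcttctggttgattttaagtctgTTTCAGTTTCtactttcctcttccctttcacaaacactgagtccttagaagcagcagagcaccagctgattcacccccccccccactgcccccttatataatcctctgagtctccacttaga
Gbp3: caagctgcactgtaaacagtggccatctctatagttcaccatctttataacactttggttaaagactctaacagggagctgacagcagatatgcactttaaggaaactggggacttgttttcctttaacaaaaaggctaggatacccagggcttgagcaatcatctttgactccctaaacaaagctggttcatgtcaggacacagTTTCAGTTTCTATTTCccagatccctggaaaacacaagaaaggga

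Signals were deposited on a log2 scale, so a difference of 1 is a doubling. A gene is said here to separate the arrays when its lowest value in one set lay above its highest value in the other, and the distance between those values is called its gap. Since the sets were chosen by Prl on the same arrays, all separations are descriptions with no test. The level of a transcript that is not there was taken from 1412 probes of olfactory and vomeronasal receptors, and the 95th percentile of these probes on an array, 4.87 to 5.80, is called the floor. Array medians lay between 5.91 and 6.06, and no arrays held identical values. In total RNA of a culture, more cells of a type and more RNA per cell cannot be told apart.

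Among 19505 named genes, 276 were higher in all 4 arrays than in any of the 8 (1.42%), and 478 were lower (2.45%). A gap of at least 1 was found for 13 higher genes (0.0666%) and 9 lower genes (0.0461%). After a further quantile normalization the split was 451 higher and 350 lower. Leaving out an array can only add separating genes, and in places it raised a count by more than 1.5 times. The counts were 636 higher and 1060 lower without miR-34a 3, 516 and 1144 without miR-324 1, 447 and 602 without scramble 3, and 428 and 608 without miR-324 2. The widest gaps on the higher side were those of hormone genes.

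Transcripts of several anterior pituitary hormones were high in the 4 arrays and near or below the floor in the others. Prl and Cga had the widest gaps of all 19505 genes, and 5 of the 7 hormone genes on the list separated the arrays, against 1.42% of all genes. Because this list includes Prl and the labelled marker genes Cga and Gh, its count is not independent of how the arrays were chosen. The same 5 genes separated under a further quantile normalization and with arrays centred on their medians.

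Prl stood at 14.92 in scramble 3, 14.98 in miR-324 1, 14.26 in miR-324 2 and 15.17 in miR-324 4, against a lowest value of 3.37, a median of 3.97 and a highest value of 4.83 in the 8 arrays. Prl lay below the floor on every one of the 8 arrays, and its gap was 9.43. Cga, the alpha subunit of luteinizing, follicle-stimulating and thyroid-stimulating hormone, stood at 11.85 in scramble 3 and at 12.82, 8.69 and 11.26 in miR-324 1, 2 and 4, and at 2.95 to 4.24 with a median of 3.62 in the 8. The sets were 4.45 apart for Cga, and within the 4 arrays miR-324 2 was clearly the lowest. Gh, growth hormone, stood at 10.17 in scramble 3 and at 4.45, 9.15 and 8.34 in miR-324 1, 2 and 4, against 3.50 to 4.00 with a median of 3.89 in the 8. Gh was thus high in 3 of the 4 arrays, whereas in miR-324 1 it lay below that array's floor of 5.71. Its gap was 0.45, and 4.34 without miR-324 1.

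**Figure D1:**
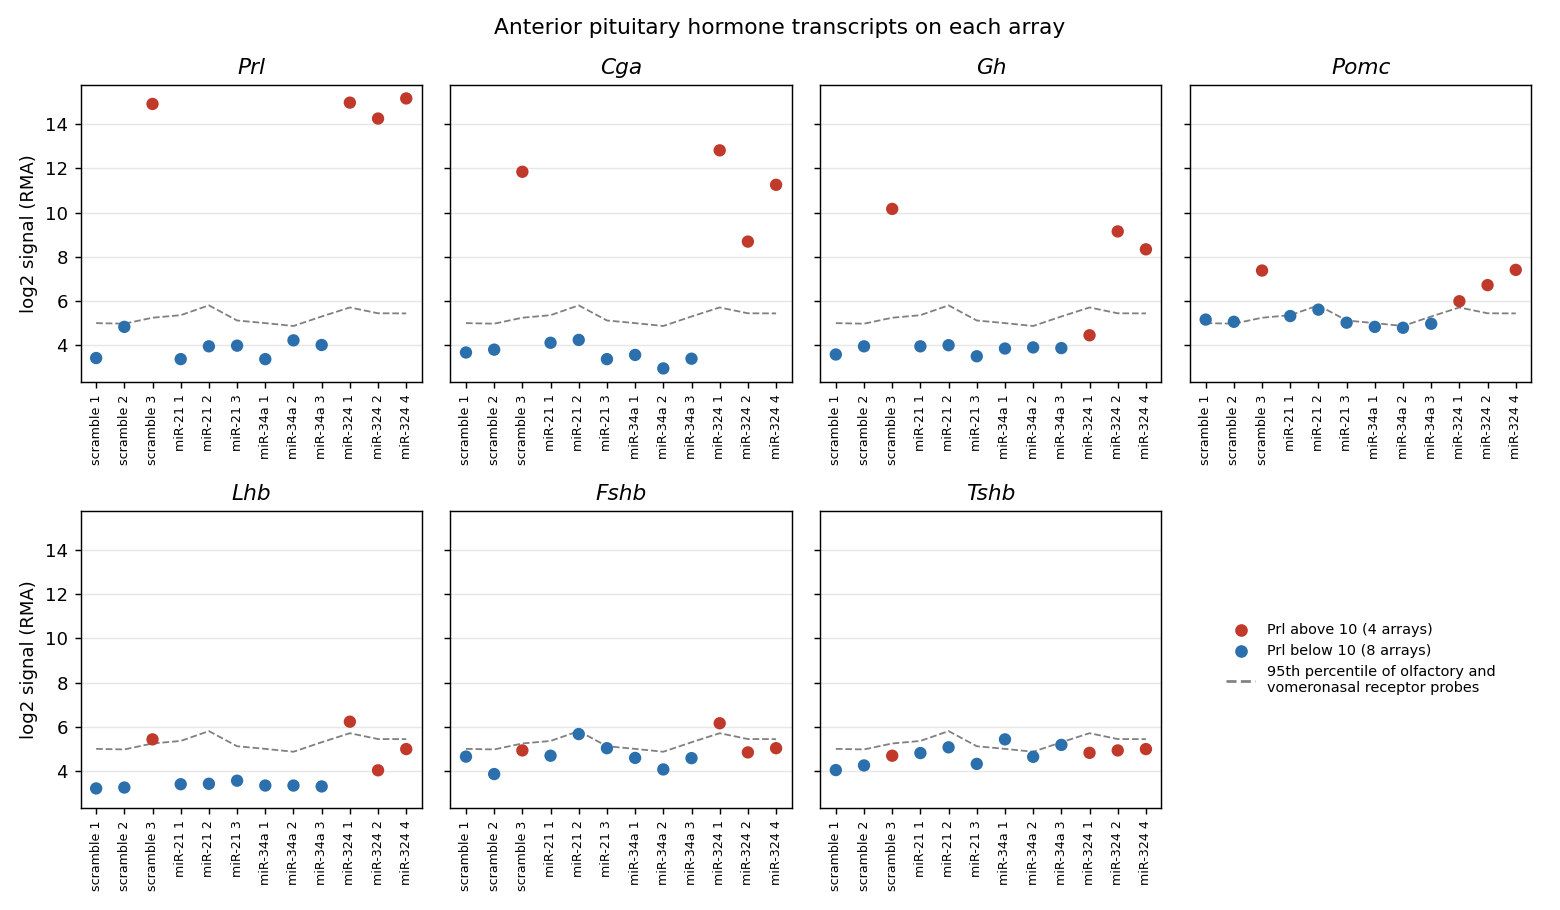
Log2 signal (vertical axis) of 7 anterior pituitary hormone genes on each of the 12 arrays (horizontal axis), red for the 4 arrays with Prl above 10 and blue for the other 8; the dashed line joins each array's floor, the 95th percentile of olfactory and vomeronasal receptor probes. Prl is at 14.26 to 15.17 in the red arrays and at most 4.83 in the blue ones, Gh is low in miR-324 1, and Fshb and Tshb overlap.

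Pomc, the precursor of corticotropin, stood at 7.38 in scramble 3 and at 5.99, 6.72 and 7.41 in miR-324 1, 2 and 4, and at 4.79 to 5.61 with a median of 5.04 in the 8 arrays. Its gap was 0.38, so the sets came close. Lhb, the beta subunit of luteinizing hormone, stood at 5.43, 6.23, 4.03 and 4.99 in scramble 3 and miR-324 1, 2 and 4, and at 3.21 to 3.56 with a median of 3.34 in the 8. Lhb passed the floor only in scramble 3 and miR-324 1. Fshb, the beta subunit of follicle-stimulating hormone, stood at 4.93, 6.16, 4.84 and 5.03, and at 3.86 to 5.67 with a median of 4.62 in the 8. Tshb, the beta subunit of thyroid-stimulating hormone, stood at 4.69, 4.82, 4.93 and 4.99, and at 4.04 to 5.43 with a median of 4.73 in the 8. Both overlapped between the sets, and Tshb did not pass the floor on any of the 4 arrays.

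The 4 arrays were not alike in which hormone genes were high. Prl varied by less than 1 log2 among them, whereas Cga spanned from 8.69 to 12.82 and Gh from 4.45 to 10.17. Cga and Lhb had the same order, highest in miR-324 1, then scramble 3, then miR-324 4 and lowest in miR-324 2. miR-324 1 had the highest Cga, Lhb and Fshb of the 4 arrays together with the lowest Gh and Pomc. A list of 7 gonadotroph genes, written after values had been seen, was highest in miR-324 1 for all 7 (Cga, Lhb, Fshb, Gnrhr, Gata2, Nr5a1 and Tgfbr3l). This array was the highest of the 4 for 8028 of 19505 genes (41.2%). It was also highest for 10 of 12 receptors for hypothalamic signals and 14 of 16 endothelial genes, and for 0 of 16 sensory neuron genes. Being highest there was thus not particular to gonadotroph genes. The floor of miR-324 1, 5.71, was the highest of the 4, against 5.24 to 5.44 in the rest, and Nr5a1 in miR-324 1 was at 5.74. Gnrhr, the receptor for gonadotropin-releasing hormone, stood at 5.14 in miR-324 1 and 5.10 in miR-324 4, at 4.43 and 3.78 in scramble 3 and miR-324 2, and at 2.92 to 4.02 with a median of 3.34 in the 8. Gnrhr overlapped through miR-324 2 and was below the floor everywhere. Gata2, a transcription factor of gonadotrophs and also of endothelial cells, stood at 9.77 in miR-324 1 and 7.84, 7.85 and 8.34 in scramble 3, miR-324 2 and miR-324 4, against 6.78 to 8.70 with a median of 7.27 in the 8.

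Pituitary transcription factors and receptors did not separate the arrays, and most of them lay below the floor on every array. Of 24 transcription factors of pituitary development and identity 18 were measured and 6 were not analysed here, and 0 separated the arrays in either direction. Their median signal was 4.03 to 4.36 in the 4 arrays and 4.04 to 4.36 in the 8, near the floor, and 11 of the 18 were below the floor on all 12 arrays. These included Pitx1, Hesx1, Lhx3 and Tbx19, which act in the developing gland or in its corticotrophs. Of 12 receptors for hypothalamic and related signals 0 separated, and 10 were higher by median in the 4 arrays, against 9843 of all 19505 genes. Of these receptors 7 were below the floor on all 12 arrays. Genes below the floor cannot show whether they followed the hormones, and over all genes only 1.42% were higher and 2.45% lower without overlap. Drd2, the dopamine receptor of lactotrophs, stood at 5.33, 5.41, 5.30 and 5.18 in scramble 3 and miR-324 1, 2 and 4, within the 4.78 to 6.07 of the 8 arrays. Sstr5, a somatostatin receptor, stood at 4.73, 5.82, 4.97 and 5.58, and at 4.06 to 4.77 with a median of 4.34 in the 8. Sstr5 passed the floor in miR-324 1 and 4 and in none of the 8, with scramble 3 overlapping by a small margin. Without 1 array, up to 1 transcription factor separated in each direction, and up to 2 receptors were higher, the latter without scramble 3.

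Of 8 further genes of anterior pituitary cells, 1 separated on the higher side, against 1.42% of all genes. This was Tgfbr3l, a gonadotroph coreceptor, at 5.63, 6.32, 5.62 and 5.72 in scramble 3 and miR-324 1, 2 and 4, against at most 5.49 in the 8, and the count was 2 without scramble 3 or without miR-21 2. Among 18 measured genes of the secretory granule, which neurons share with endocrine cells, Chgb was the 1 that separated. Chgb, a granin, stood at 7.44, 7.28, 6.52 and 6.80, and at 5.35 to 6.35 with a median of 6.01 in the 8. Genes of stem and folliculostellate cells of the pituitary (11 measured) and of its posterior lobe (8 measured) gave 0 separating genes in either direction. Without miR-34a 3, 2 stem and folliculostellate genes and 2 secretory granule genes were lower, and 1 posterior lobe gene was higher without miR-324 1 or without miR-324 4.

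Epithelial genes, which hormone cells of the anterior pituitary express as derivatives of oral ectoderm, separated for 4 of 16 on the higher side and 1 on the lower, against 1.42% and 2.45% of all genes. The keratins Krt8 and Krt18, the adhesion molecule Epcam and the tight junction gene Cldn4 were higher, all at low signal. Krt18 stood at 5.63, 5.77, 5.62 and 6.08 in scramble 3 and miR-324 1, 2 and 4 and at 4.22 to 5.31 with a median of 4.72 in the 8. Only Prl, Cga and Krt18 were above the floor in all 4 arrays and in 0 of the 8, which is 0.0154% of all genes. Epcam, with a gap of 0.05, lay below the floor in all 4 arrays. Cdh1, E-cadherin, went the other way, at 9.01, 9.08, 9.08 and 9.21 against 9.58 to 13.29 with a median of 12.39. The array of the 8 closest to the 4 for Cdh1 was miR-34a 3, at 9.58.

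Lists for other tissues gave few or no separating genes. Other endocrine glands, forebrain neurons and central glia, choroid plexus, olfactory epithelium, skeletal muscle, cartilage and bone, and stratified epithelium each had 0 on all 12 arrays, in either direction. Over all genes 1.42% were higher and 2.45% lower, so a count of 0 in lists of 6 to 11 genes is near that share. With 1 array left out, other endocrine glands and choroid plexus reached 1, and the others stayed at 0. The placental prolactin family, whose sequences resemble Prl, gave 1 of 22, Prl2c3. It stood at 5.97, 4.60, 5.96 and 5.82 in scramble 3 and miR-324 1, 2 and 4 and at 3.21 to 4.50 in the 8, its gap was 0.10, and it overlapped after a further quantile normalization. The count was 2 without miR-21 1, miR-324 1 or miR-324 2, and 3 without miR-34a 3. Hypothalamic neuropeptides gave 1 of 10, Crh, corticotropin-releasing hormone, with a gap of 0.02 that became an overlap after a further quantile normalization and with arrays centred on their medians. The count was 2 without miR-21 3.

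**Figure D2:**
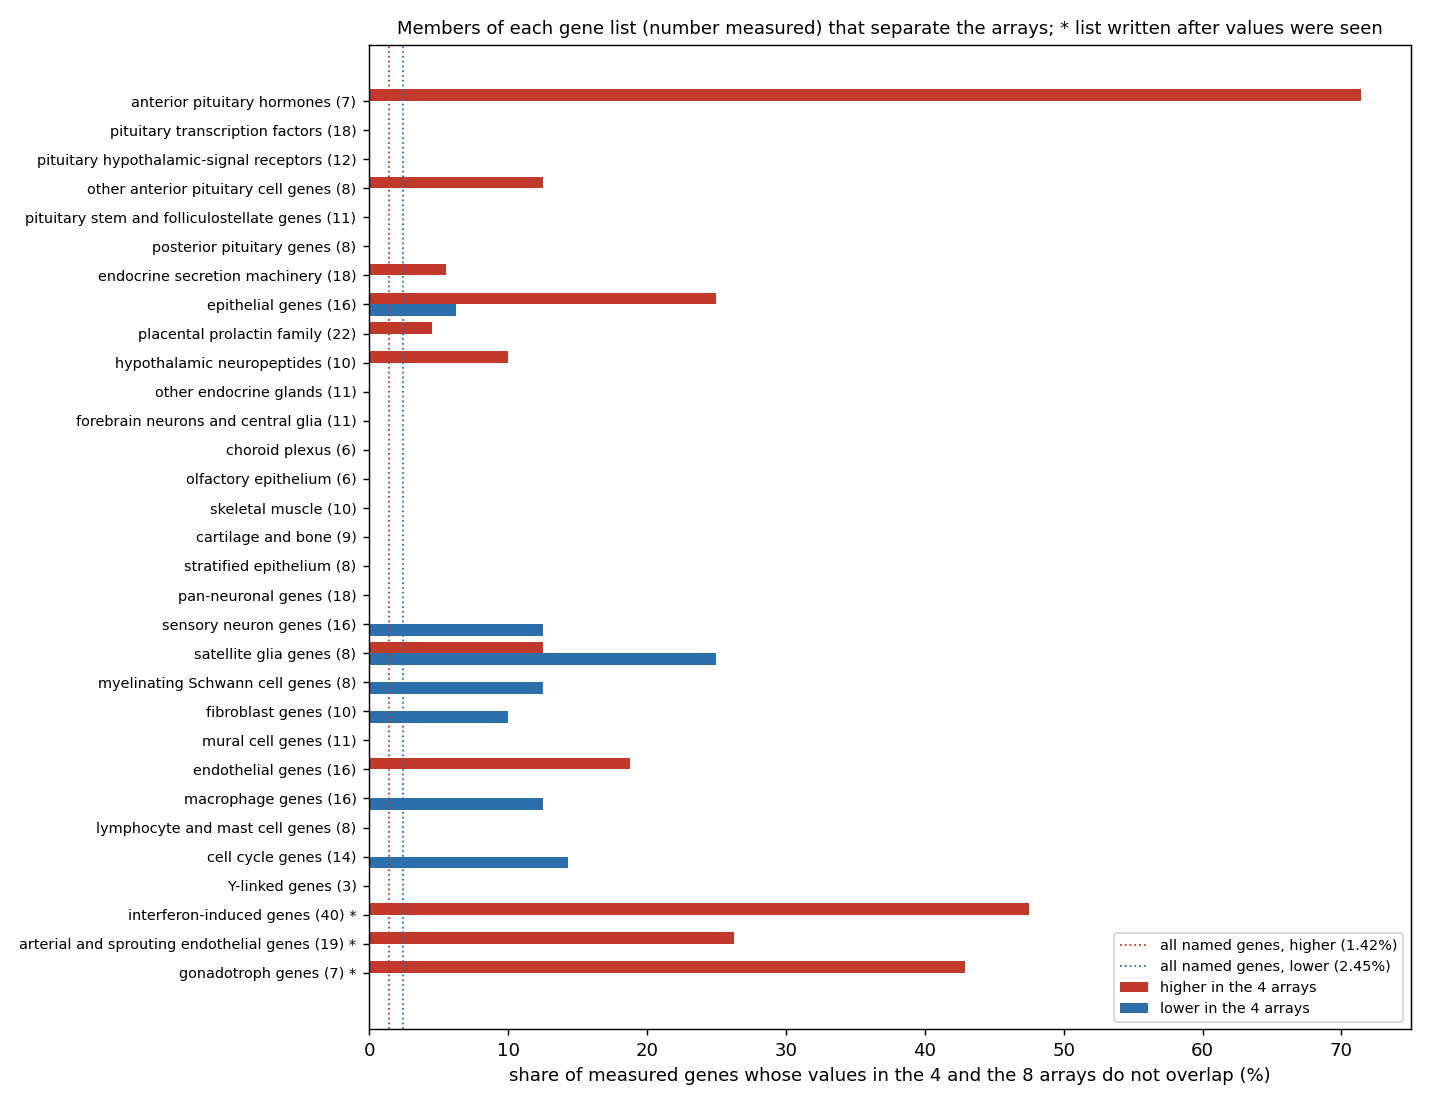
Share of the measured genes of each list whose values in the 4 and the 8 arrays did not overlap (horizontal axis, percent), red for genes higher and blue for genes lower in the 4 arrays, with the number measured in brackets and the share over all named genes as dotted lines at 1.42% and 2.45%; an asterisk marks lists written after values were seen. Anterior pituitary hormones have the longest bar, 71.4%, while pituitary transcription factors and receptors, most of them below the floor, have none. The hormone list includes Prl, which defined the sets, and the marker genes Cga and Gh, so its bar is not independent of that choice.

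The other wide gaps belonged to genes that are not specific to the pituitary. Of the 25 widest gaps on the higher side, counted without placeholder symbols, Prl and Cga were the 2 hormone genes. Next came Penk, the precursor of the opioid enkephalins, at 9.86, 9.11, 8.59 and 8.32 in scramble 3 and miR-324 1, 2 and 4, against 4.91 to 6.68 with a median of 5.87 in the 8, a gap of 1.64. Upp1, a uridine phosphorylase, stood at 8.02, 7.97, 8.65 and 8.04, against 4.58 to 6.37 with a median of 5.41, and miR-34a 3 was the highest of the 8. The group also held Inpp5d, an inositol phosphatase best known in blood cells, at 10.96, 10.97, 11.03 and 11.12 against 7.40 to 9.72 with a median of 7.88. Inpp5d was nearly the same in all 4 arrays, and its gap was 1.24, or 2.71 without miR-34a 3. Mmp3, a matrix metalloproteinase, had a gap of 0.95 and Prg4, the joint lubricant lubricin, of 0.94. Pgf, a growth factor of the VEGF family, had a gap of 1.06, and Sema3f, a secreted guidance cue, of 0.96.

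**Figure D3:**
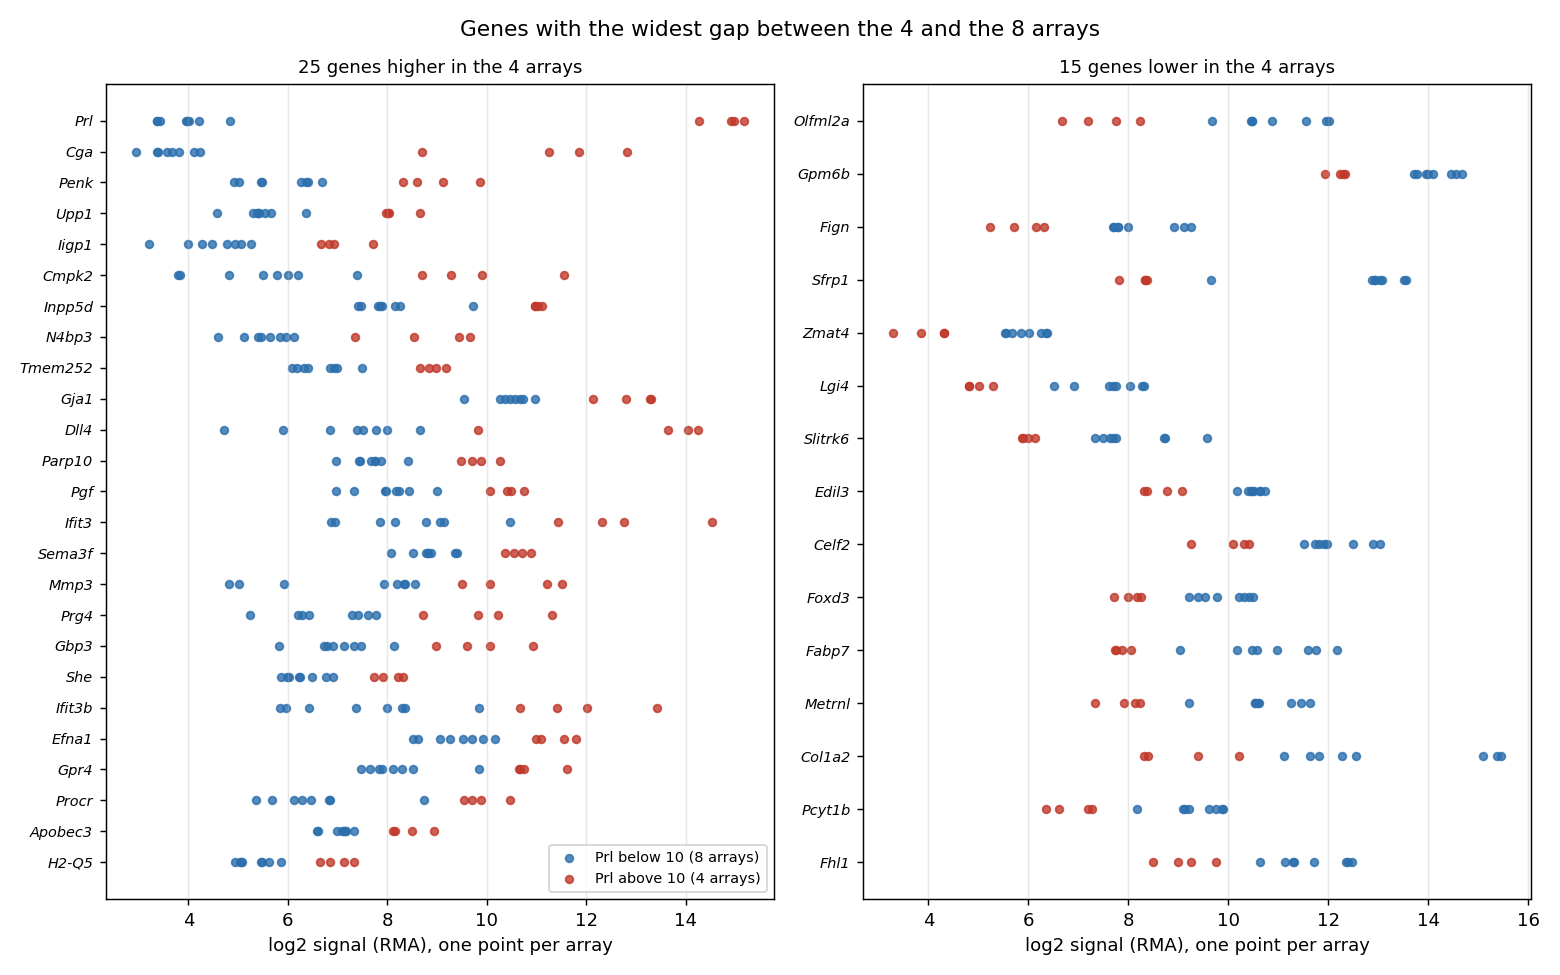
Log2 signal (horizontal axis) on each array, red for the 4 arrays with Prl above 10 and blue for the other 8, of the 25 genes with the widest gap on the higher side (left panel) and the 15 on the lower side (right panel). Prl and Cga lie apart from all others on the left, with gaps of 9.43 and 4.45, while the next, Penk, has a gap of 1.64; the widest gap on the right is 1.44, for Olfml2a.

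Interferon-induced genes were higher in the 4 arrays as a group. Of 40 measured members of a list written after values had been seen, 19 were higher without overlap and 0 were lower, against 1.42% and 2.45% of all genes. On the median, the list was at 8.71, 9.59, 8.15 and 8.59 in scramble 3 and miR-324 1, 2 and 4, and 5.43 to 7.62 in the 8, where the highest was miR-34a 3. The count was 26 without miR-34a 3. Cmpk2, a mitochondrial nucleotide kinase, stood at 9.91, 11.55, 8.69 and 9.28 in scramble 3 and miR-324 1, 2 and 4, against 3.78 to 7.38 with a median of 5.64. Ifit3, an antiviral protein, stood at 12.75, 14.54, 11.43 and 12.31, against 6.86 to 10.46 with a median of 8.47. Iigp1, an interferon-inducible GTPase, stood at 7.72, 6.93, 6.66 and 6.83, against 3.21 to 5.25 with a median of 4.63. For Cmpk2 and Ifit3 the highest of the 4 arrays was miR-324 1 and the lowest miR-324 2, and for Iigp1 the highest was scramble 3. Isg15, a ubiquitin-like antiviral protein, overlapped by a small margin, at 7.67, 9.71, 6.36 and 7.37 against at most 6.45 in miR-34a 3. What raised these genes was not tested.

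The interferon motif of the printed windows was counted over promoters. The pair of GAAA blocks was in 17 of the 30 interferon-induced genes with a window (56.7%), and in 544 of all 15691 named genes with one (3.47%). A gene was counted when any of its windows matched. Counted by window, the pair was in 2.98% of all 32851 windows of the same length. Among the separating genes it was in 18 of 215 on the higher side (8.37%) and in 8 of 400 on the lower side. Without the interferon-induced list the share on the higher side was 4.48%, 9 of 201. The TATNCAT motif of the Prl window was in 8.37% of the separating genes on the higher side and in 7.75% of all named genes with a window. It was in 7.92% of all windows, and in 1 of the 6 hormone genes with a window. Gh was without an entry.

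Endothelial genes were higher in the 4 arrays and in miR-34a 3. Their list had 3 of 16 genes separating on the higher side (Cdh5, Tek and Cldn5), against 1.42% of all genes, and 0 on the lower. Without miR-34a 3 the count was 11 of 16. The list's median was 10.74, 12.18, 11.47 and 11.03 in scramble 3 and miR-324 1, 2 and 4, 11.29 in miR-34a 3, and 8.23 to 9.80 in the other 7 arrays. Cdh5, the cadherin of endothelial junctions, stood at 15.59, 16.80, 15.65 and 15.98, against 12.25 to 15.57 with a median of 12.45 in the 8. The highest of the 8 was miR-34a 3, which came within 0.02 of scramble 3. Cldn5, a tight junction protein of vessels, stood at 11.92, 9.86, 11.98 and 10.88, against 5.50 to 9.12 with a median of 6.42, again with miR-34a 3 highest of the 8.

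A list of 19 measured genes of arterial and sprouting endothelium was written after values had been seen. On the higher side 5 separated (Dll4, Cxcr4, Efnb2, Gja4 and Nos3), against 1.42% of all genes, and 11 did so without miR-34a 3. Dll4, a Notch ligand of arteries and tip cells, stood at 14.24, 9.83, 14.05 and 13.64 in scramble 3 and miR-324 1, 2 and 4, against 4.71 to 8.66 with a median of 7.45 in the 8. miR-324 1 was far below the other 3 for Dll4, and the gap of 1.17 became 4.98 without it. Cxcr4, the receptor of the chemokine CXCL12, had the same pattern, at 13.50, 9.30, 12.90 and 12.09 against 6.01 to 8.66. Kdr, the main VEGF receptor of endothelium, was highest in miR-324 1, at 12.23, 15.90, 13.24 and 14.33 against 10.40 to 15.27, and overlapped. Procr, the endothelial protein C receptor, had a gap of 0.80 and Efna1, an ephrin, of 0.82. Mural cells of vessels gave 0 of 11 in either direction, and on the lower side 1 without miR-34a 3 and 2 without miR-324 1.

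Among the 15 widest gaps on the lower side were Gpm6b, Sfrp1, Lgi4 and Foxd3, picked here after their values were seen. Gpm6b, a proteolipid of glia and neurons, stood at 12.29, 11.94, 12.33 and 12.24 in scramble 3 and miR-324 1, 2 and 4, against 13.72 to 14.67 with a median of 14.05, a gap of 1.39. Sfrp1, a secreted Wnt inhibitor, stood at 8.34, 7.81, 8.33 and 8.38, against 9.65 in miR-34a 3 as the lowest of the 8, a median of 12.99 and a highest value of 13.55. Its gap of 1.27 was 4.49 without miR-34a 3. Lgi4, which Schwann cells secrete, was at 5.01, 4.82, 5.30 and 4.81 against 6.52 to 8.32 with a median of 7.73. Lgi4 was 1 of 15 genes below the floor in the 4 arrays and above it in all 8, 0.0769% of all genes. Foxd3, a transcription factor of neural crest and its glia, had a gap of 0.97.

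Of 8 satellite glia genes, Fabp7 and Kcnj10 were lower and Gja1 was higher, against 2.45% and 1.42% of all genes. The count of lower genes was 4 without miR-324 1. Fabp7, a fatty acid binding protein of glia, stood at 8.06, 7.76, 7.73 and 7.87, against 9.03 to 12.17 with a median of 10.78 in the 8. Gja1, the gap junction protein connexin 43, which fibroblasts and endothelium also make, stood at 13.28, 12.13, 13.31 and 12.80, against 9.54 to 10.96 with a median of 10.52. The list's median was 8.09 to 9.07 in the 4 arrays, 8.76 in miR-34a 3, and 9.83 to 10.64 in the other 7. Pmp22, a myelin protein, was the 1 of 8 myelinating Schwann cell genes that was lower, and it overlapped after a further quantile normalization. The count was 2 without miR-324 1, and 6 of 8 both without the 4 arrays of suffix 4-10 and among the 6 arrays without a suffix. Of 10 fibroblast genes 1 was lower, Col1a2, a collagen chain, at 8.40, 10.22, 8.31 and 9.40 against 11.12 to 15.45 with a median of 12.42. That count was 3 without miR-34a 3 and 2 without miR-324 4. By median 3 of the 10 fibroblast genes were higher in the 4 arrays, and 1 separated as higher without miR-324 1. Dcn, on the same list, was at 17.02, 12.94, 16.61 and 16.51, against 12.77 to 15.79 with a median of 14.48.

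Pan-neuronal genes gave no common difference, whereas sensory neuron genes were lower by list median in the 4 arrays and in miR-34a 3. Of 18 pan-neuronal genes 0 separated in either direction, and 2 were lower without miR-34a 3. Their median was 13.00, 10.33, 12.83 and 12.55 in scramble 3 and miR-324 1, 2 and 4, within the 10.05 to 13.71 of the 8, so that miR-324 1 and miR-34a 3 were the lowest of all 12. Of 16 sensory neuron genes, Trpm8, the cold receptor, and Runx1, a transcription factor of nociceptors, were lower without overlap, against 2.45% of all genes. The count was 6 without miR-34a 3. The sensory list's median was 6.77 to 8.95 in the 4 arrays, 6.96 in miR-34a 3, and 9.50 to 11.23 in the other 7. Only 1 of its 16 genes was higher by median in the 4 arrays. Runx1 stood at 10.45, 10.55, 10.78 and 10.70, against 11.53 to 12.36 with a median of 11.96. The defining neuronal marker Tubb3 was at 12.95, 10.83, 12.93 and 12.55, against 10.15 to 15.18 with a median of 13.96 in the 8. The labelled cell type was thus present on all 4 arrays, though Tubb3 in miR-324 1 was below every array except miR-34a 3.

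The macrophage list's median was near or below the floor in the 4 arrays, in miR-34a 3 and after miR-21, and high only with the suffix 4-10. Ptprc and Cx3cr1 were the 2 of 16 that separated, both on the lower side, against 2.45% of all genes. The count was 7 without miR-34a 3 and 4 without miR-324 2. The list's median was 4.61 to 4.83 in the 4 arrays, near the floor, and 4.73 in miR-34a 3. It was 5.14 to 5.57 after miR-21, where the floors were 5.12 to 5.80, and 8.09 to 8.51 in the 4 arrays with the suffix 4-10. Ptprc, the leukocyte antigen CD45, stood at 5.03, 5.00, 4.66 and 4.87 in scramble 3 and miR-324 1, 2 and 4, against 5.74 to 7.38 with a median of 6.76. Cx3cr1, the fractalkine receptor, was 0.06 apart between the sets, and it overlapped with arrays centred on their medians.

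Cell cycle genes were lower by list median in the 4 arrays and in miR-34a 3 than in the other 7. Pcna, the sliding clamp of DNA replication, and Mcm3, a subunit of the replicative helicase, were the 2 of 14 that separated. Both were lower, as were 2.45% of all genes. Without miR-34a 3 the count was 13 of 14, and after a further quantile normalization of all 12 arrays it was 0. The list's median was 6.17, 7.27, 6.58 and 6.79 in scramble 3 and miR-324 1, 2 and 4, 6.27 in miR-34a 3, and 9.19 to 9.78 in the other 7. In the endothelial, satellite glia, sensory neuron, macrophage and cell cycle lists miR-34a 3 therefore lay at the level of the 4 arrays. The fibroblast list's median was 7.55 to 8.53 in the 4 arrays, 7.19 in miR-34a 3, and 9.42 to 10.68 in the other 7. Prl in miR-34a 3 stood at 4.01, Cga at 3.39 and Gh at 3.87. The part of these cell type differences in the hormone signal, or of the reverse, was not tested.

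**Figure D4:**
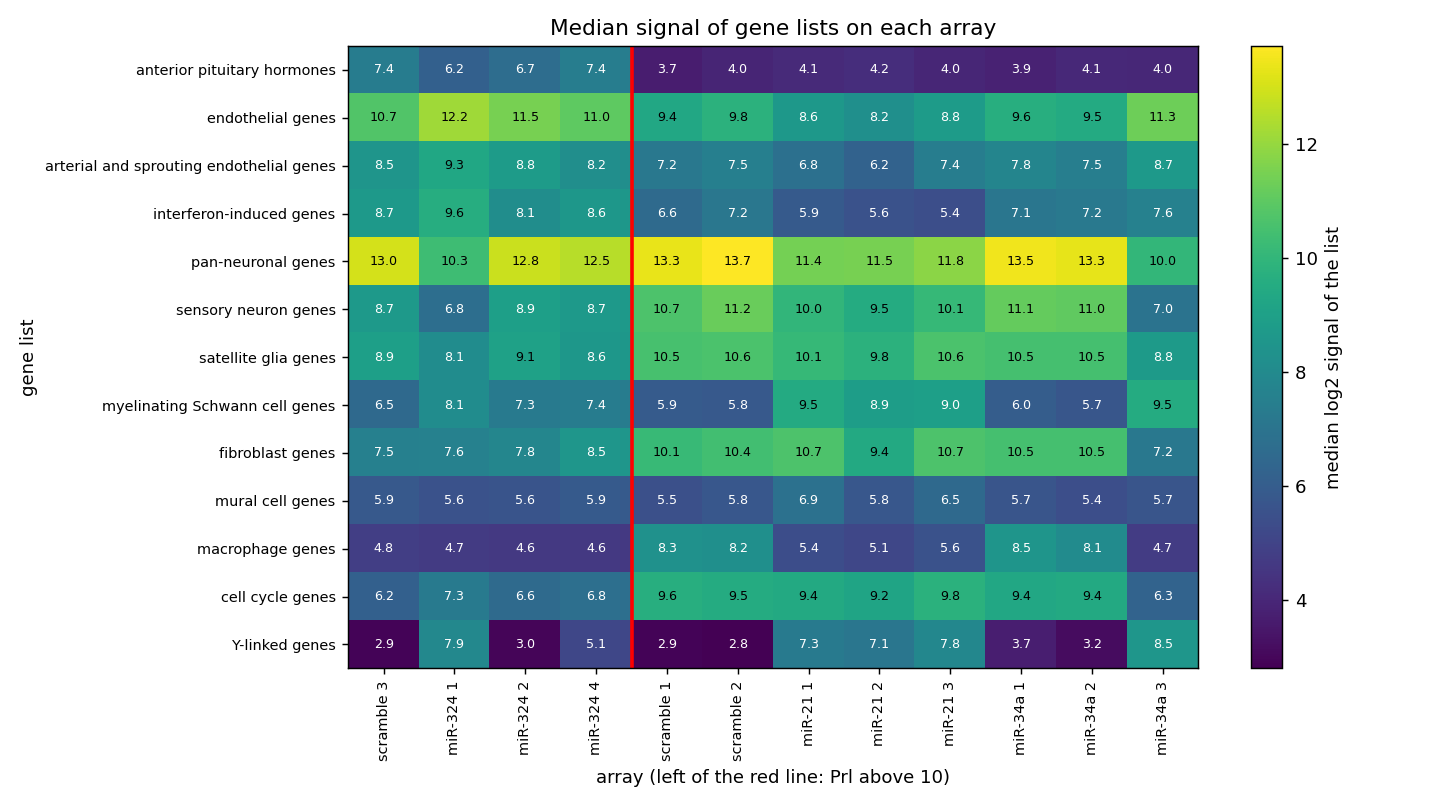
Median log2 signal (colour and printed value) of 13 gene lists (rows) on the 12 arrays (columns); the 4 arrays with Prl above 10 are left of the red line. Anterior pituitary hormones are high only left of the line, whereas in endothelial, macrophage and cell cycle genes miR-34a 3, at the far right, has 11.29, 4.73 and 6.27, as the 4 arrays do.

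The label suffixes and Y-linked transcripts also differed among the arrays. Both arrays with the suffix 3-11 had Prl above 10, and all 4 arrays with 4-10 had it below 10, so within these suffixes the sets cannot be told apart from the suffix. The 6 arrays without a suffix held 2 arrays above 10 (miR-324 1 and 4) and 4 below. Among these 6 arrays 1491 genes were higher and 1948 lower without overlap. Without the 4 arrays of suffix 4-10, 537 genes were higher and 1171 lower. A gene that separates all 12 arrays also does so in any such subset, so these counts do not show whether a separation depends on the suffix. Eif2s3y, a Y-linked gene, was at 2.13, 7.88, 2.96 and 5.13 in scramble 3 and miR-324 1, 2 and 4, and at 2.27 to 8.53 with a median of 5.01 in the 8. It was above the floor in 1 of the 4 arrays, miR-324 1, and in 4 of the 8. By suffix, Eif2s3y stood at 2.13 to 2.96 on every array with a suffix and at 5.13 to 8.53 on the 6 without one. The Y-linked signal therefore cannot be told apart from the suffix. All scramble arrays carry a suffix, whereas miR-324 1 and 4 do not.

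The labelled comparison that these arrays touch is miR-324 against scramble, in which Prl was high in 3 of 3 arrays against 1 of 3. With all 3 scramble arrays, limma called 0 of 19572 named probes higher (0%) and 0 lower at an adjusted p under 0.05. At an unadjusted p under 0.05 there were 2877, and the lowest adjusted p was 0.309. Prl was 7.08 ± 2.09 (standard error, SE) log2 higher after miR-324, with an adjusted p of 0.309 in the limma fit, Cga 4.48 ± 1.71 higher (0.317) and Gh 1.41 ± 1.49 higher (0.658). None of these passed the threshold, and each difference depended on which scramble arrays were used.

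Without scramble 3, that is against scramble 1 and 2 alone, limma called 124 probes higher (0.634%) and 259 lower (1.32%). The difference was then 10.68 ± 0.44 (SE) for Prl, 7.19 ± 0.85 for Cga and 3.55 ± 0.99 for Gh. These 5 arrays are all high or all low in Prl by the choice of the sets, so the hormone differences are given with no p. Of the 124 probes 81 (65.3%), and of the 259 probes 101 (39.0%), belonged to genes that separated the 4 from the 8 arrays. Over all genes 1.42% separated as higher and 2.45% as lower. Both counts come from overlapping samples and largely the same contrast of arrays high and low in Prl. The overlap is therefore no independent support for either. Against scramble 3 alone, taken to vary like the other groups, limma called 0 probes in either direction, 565 had an unadjusted p under 0.05, and the lowest adjusted p was 0.998. The difference was then -0.12 ± 0.46 for Prl, -0.93 ± 1.13 for Cga and -2.86 ± 1.32 for Gh.

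In the pair that shares the suffix 3-11, miR-324 2 minus scramble 3, the difference was -0.66 for Prl, -3.16 for Cga, -1.02 for Gh, -0.66 for Pomc and -1.40 for Lhb, with 1 array on each side and no test. All 5 were thus lower after miR-324 in that pair and higher against scramble 1 and 2. Scramble 3 differed from the mean of scramble 1 and 2 by more than 1 log2 for 12.4% of genes, 726 higher and 1689 lower. miR-324 2 differed from scramble 3 by that much for 4.93%, 556 higher and 406 lower. In these counts the scramble array with Prl differed from its own group in more genes than from the miR-324 array of the same suffix.

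**Figure D5:**
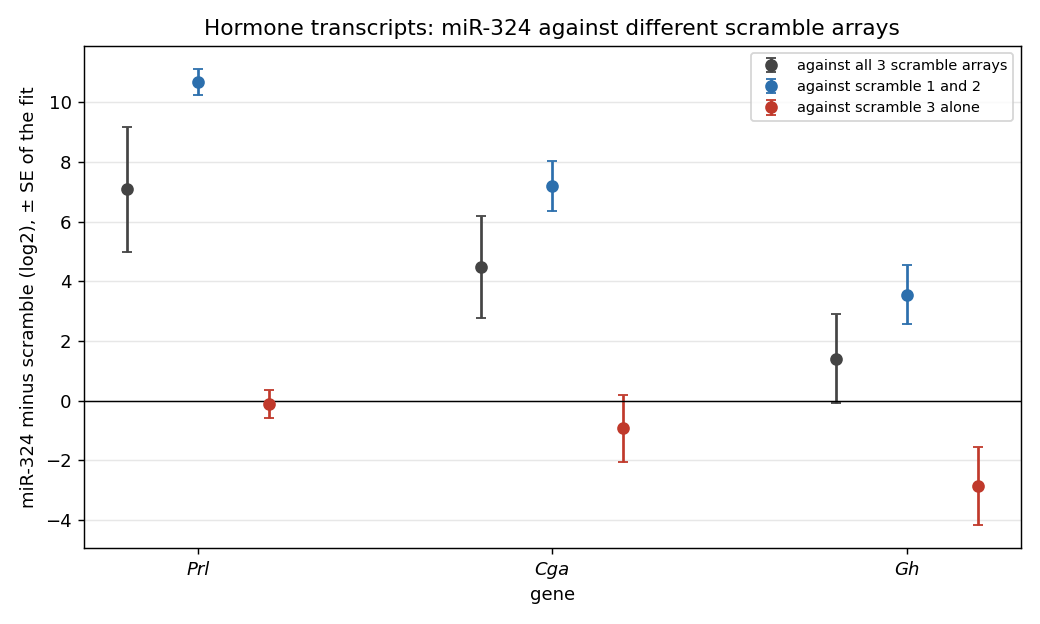
Difference of miR-324 minus scramble (vertical axis, log2, with the standard error of the limma fit) for Prl, Cga and Gh, against all 3 scramble arrays (grey), scramble 1 and 2 (blue) and scramble 3 alone (red). Prl is 10.68 higher against scramble 1 and 2, and the difference against scramble 3 is -0.12.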

How the data were processed

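Total RNA of 12 samples of cultured neurons was hybridised to Clariom S Mouse arrays, 3 arrays for each of scramble, miR-21, miR-34a and miR-324. The deposited values are log2 signals. Per the submitters' processing notes, the authors used RMA (robust multi-array average) in Transcriptome Analysis Console 4.0. RMA subtracts background and normalizes arrays towards a common distribution of probe intensities, so a change in total RNA is largely removed and differences near the floor are understated. The deposited gene-level distributions were close but not identical, with array medians of 5.91 to 6.06. Array number, not read depth, limits precision.

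The table had 22206 probes. The platform annotation gave 19572 of them 1 symbol, 0 several and 2634 none, and the 19505 symbols were all found in the RefSeq table of GRCm38.p6. For 55 symbols with more than 1 probe the brightest on average was used. Separation was counted over symbols, and group means were fitted over all named probes and 12 arrays by lmFit and eBayes (limma 3.58.1, R 4.3.3; two-sided, Benjamini-Hochberg). Both steps were tested on simulated data. The array sets and gene lists were chosen with earlier results of these data known. The interferon-induced, arterial and sprouting endothelial, and gonadotroph lists, and the fits that leave out arrays by suffix for the separation counts, were added after values were seen. Named genes were the measured hormones, pituitary factors and receptors, the 25 widest gaps on the higher and 15 on the lower side without placeholder symbols, up to 4 members of every other list by gap, and culture markers. Kdr, Isg15, Gnrhr, Gata2, Sstr5, Nr5a1 and Dcn were described after their values were seen. Arrays were grouped by title, and alternatives were renormalization, centring, brighter probes, wider gaps, left-out arrays, a replicate block and other scramble arrays.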

Additional observations from a re-analysis of the deposited data

How the results depend on the processing

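A gene that separates all 12 arrays cannot overlap when arrays are left out, so counts without an array show only how many genes that array kept from separating. Of 65 named separating genes, 5 overlapped after a further quantile normalization, with gaps of -0.093 for Prl2c3, -0.16 for Crh, -0.081 for Pmp22, -0.28 for Pcna and -0.073 for Mcm3, and with arrays centred on their medians 2 did, Crh at -0.06 and Cx3cr1 at -0.04. The count of higher genes was 276, and 451 after a further quantile normalization, 180 among probes brighter than the median probe, 13 and 2 at gaps of at least 1 and 2 log2, and 290 to 636 with 1 array left out. The count of lower genes was 478, with 9 and 0 at those gaps and 490 to 1144 with 1 array left out. Without the 4 arrays of suffix 4-10 they were 537 and 1171, and among the 6 arrays without a suffix 1491 and 1948. Of the 7 hormone genes 2 were among the brighter probes and both separated, and 2 separated at gaps of at least 1 and of at least 2 log2.

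For miR-324 against scramble, limma called 0 to 383 probes with 1 array left out, 383 of them without scramble 3 and 0 without any other scramble or miR-324 array (1310 to 2897 at an unadjusted p under 0.05). Against scramble 3 alone and in the suffix 3-11 pair, Prl was at -0.12 and -0.66, Cga at -0.93 and -3.16, and Gh at -2.86 and -1.02. The replicate block, on numbers that the labels give, called 0 probes (2647 at an unadjusted p under 0.05). Deviations of same-numbered arrays correlated at 0.048, 0.025 and -0.009, so the numbers were not taken to pair the samples. Signal close to the floor limits what can be said of Lhb, Epcam, Prl2c3 and Crh.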
